A study of Drosophila melanogaster with 11 samples.

Results

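The effect of losing the microRNA gene mir-284 on the transcriptome of young antennae was read from 6 of the 11 libraries of the study, while the 5 libraries of 25 d entered the fit and are set beside them at the end. The 6 were 3 libraries of wild-type flies (WT, genotype w1118;;) and 3 of knockout flies (KO, genotype w1118;;mir-284 KO, outcrossed 7 times to w1118), all taken 3 d after eclosion. The others were 3 of WT and 2 of KO flies of the same genotypes, 25 d after eclosion. Both groups carry the w1118 allele of the eye pigment gene w. The antennal segment that carries the olfactory sensilla of Drosophila melanogaster was dissected, and its polyadenylated RNA was sequenced. The labels give neither the sex of the flies, the number of antennae, the time of day of dissection nor how the KO allele was made. All 16727 genes of the deposited count table were considered, and the 11867 with enough counts were tested. A positive log2 fold change means higher in KO.

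MicroRNAs are short RNAs that, loaded on an Argonaute protein, pair with sites mostly in the 3′ ends of messenger RNAs and lower their stability or translation. Loss of a microRNA can therefore raise its direct targets, while indirect changes can go either way. miR-284 is known in flies for restraining the glutamate receptor subunits GluRIIA and GluRIIB. The study asked which antennal transcripts depend on mir-284 and how this relates to age.

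Total counts assigned to genes were 44394382, 38357143 and 34933682 in the WT libraries and 37087180, 36845977 and 29592192 in the KO libraries. Levels below are counts per 1000000 counts (CPM) scaled by TMM, a method that corrects for differences in library composition, and the 3 values of a group are always given in the order of replicates 1, 2 and 3. The test was edgeR's quasi-likelihood test over all 11 libraries with Benjamini-Hochberg adjustment, a called gene is one with an adjusted p under 0.05, and an adjusted p below is from this test unless another is named. The submitters describe the replicates as biological. Where removal of 1 library ended the 3 d call of a named gene, that library is named in a paragraph on that gene. Other mentions of the gene do not repeat it. Replicates without an age are those of 3 d. Replicate 3 of each group stood apart: on the first principal component of the 6 libraries, which held 42.0% of the variance, WT replicate 3 scored 89.04 and KO replicate 3 scored 38.9, against -53.6 to -22.5 for the others. The second component, with 30.8%, separated the genotypes. The common biological coefficient of variation of the fit was 0.431.

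Markers of the third antennal segment were abundant in every library, and 0 of 10 were called. Their summed levels were 44635, 42646 and 30913 CPM in WT and 60222, 53975 and 67445 CPM in KO. Each KO sum lay above each WT sum. Of the 10 markers, 9 had log2 fold changes above 0, with a median of 0.49, or 0.25 without WT replicate 3. Orco, which encodes the partner of all odorant receptors, had levels of 2585, 2518 and 699.97 CPM in WT and 2545, 2513 and 1576 CPM in KO (log2 fold change 0.19, adjusted p = 0.938). The lowest value was that of WT replicate 3, and the groups overlapped. In bulk tissue such as this, fewer cells of a type and less RNA per cell cannot be told apart.

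The targeted gene could not be checked in these libraries. mir-284 (3R, 12551515 to 12551614, minus strand, dm6) had 0 counts in all 6 libraries, and a limit of 3 counts corresponds to 0.0677 to 0.104 CPM in these libraries, and libraries of polyadenylated RNA are not made to hold a short precursor. Of its reported targets, GluRIIA (2L, 5555072 to 5558994, plus strand), a subunit of the muscle-type glutamate receptor, was at 8.21, 7.32 and 15.3 CPM in WT and 23.2, 20.4 and 25.2 CPM in KO. The 3 KO values lay above the 3 WT values, but the difference did not pass the test (log2 fold change 1.16, SE 0.29, adjusted p = 0.0986). Without WT replicate 3 alone the log2 fold change was 1.56 and the adjusted p = 0.0173, and 1 left-out 25 d library, KO replicate 1, also gave a call (adjusted p = 0.0496). GluRIIB was at 0.0903, 0.232 and 0.326 CPM in WT and 0.162, 0.108 and 0.138 CPM in KO, low in all libraries and with overlapping groups (log2 fold change -0.65, adjusted p = 0.883). Limma voom (adjusted p = 0.0379) and DESeq2 (0.0168) called GluRIIA. So did edgeR without replicate 3 of both groups (log2 fold change 1.49, adjusted p = 0.0432). EdgeR also called it with the replicate number as a block in the 6 libraries of 3 d (adjusted p = 0.0191). The other alternatives did not call it. Of 12 ionotropic glutamate receptor genes tested, 0 were called by edgeR, 1 by DESeq2 and 1 by limma voom, 3 had an unadjusted p under 0.05, and their median log2 fold change was -0.57.

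The transporter gene w (X, 2790599 to 2796466, minus strand), which moves eye pigment precursors and is mutated in w1118, was at 2.26, 0.902 and 1.68 CPM in WT and 117, 107 and 153 CPM in KO (log2 fold change 6.28, SE 0.63, adjusted p = 0.00117). All KO libraries were far above all WT libraries. The labels name no w allele other than w1118 for either group.

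Across the 11867 genes tested, 165 (1.39%) were called, 77 higher in KO (0.649%) and 88 lower (0.742%), while 1304 had an unadjusted p under 0.05. Of the same 11867 genes, DESeq2 called 564 and limma voom 176. Of the 11867 genes, 5816 had a log2 fold change above 0 and 6050 below 0. The counts given for gene lists are to be read beside these totals. All 165 had WT and KO values that did not overlap, as had 25.7% of all genes tested. Of the calls, 74 were at least 4-fold (32 higher and 42 lower) and 28 were under 2-fold. The median log2 fold change was 1.51 for the higher calls, -1.86 for the lower calls and -0.01 for all genes. The called genes were not restricted to one level of expression: their median level was 21.8 CPM, against 18.3 CPM for all genes tested. Only part of the calls was independent of every single library: 56 (20 higher and 36 lower) were called whichever of the 11 libraries was left out. Without KO replicate 1 or 2 there were 64 and 82 calls, and without WT replicate 1 or 2 there were 72 and 71. Without the 25 d KO replicate 1 or 2 there were 591 and 592. The 25 d libraries bear on this because they enter the shared estimate of the spread.

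**Figure D1:**
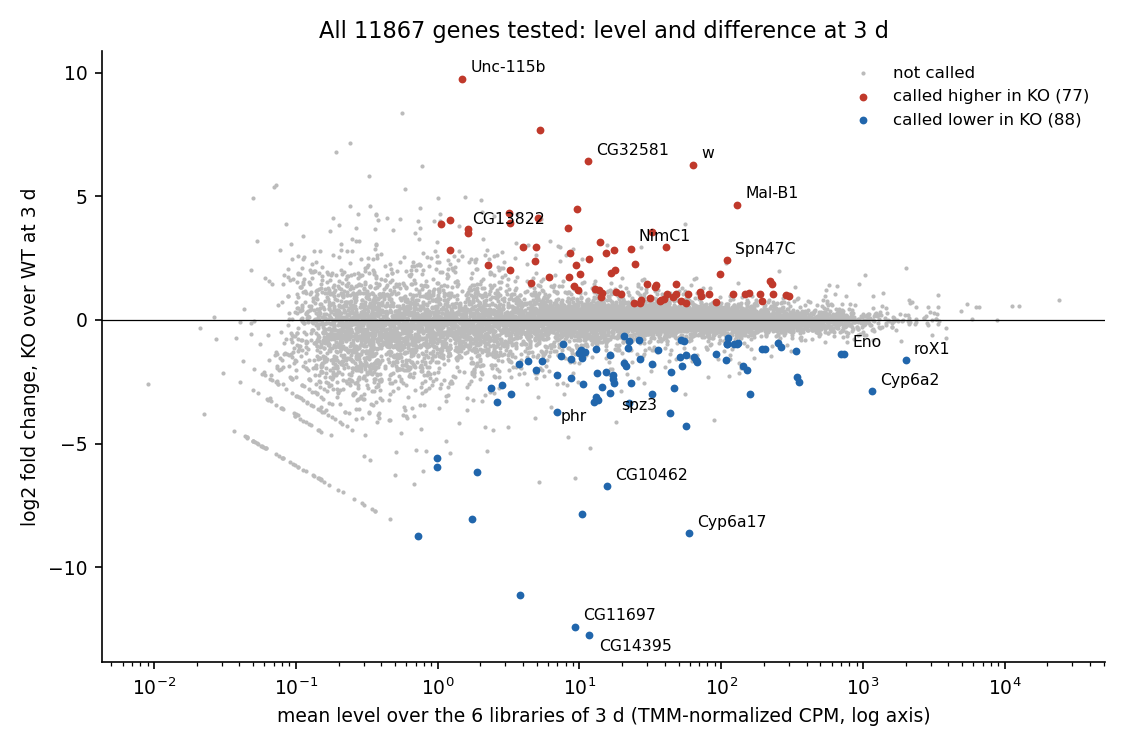
Each dot is 1 of the 11867 genes tested, with its mean level over the 6 libraries of 3 d in CPM on the log-scaled horizontal axis and its log2 fold change, KO over WT, on the vertical axis. The 77 genes called higher are red, the 88 called lower are blue, and calls appear from below 1 CPM to above 1000 CPM.

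A first group of transcripts was nearly absent in KO. CG14395 (3R, 12662831 to 12673959, plus strand), within 1 Mb of mir-284, was at 26.9, 27.8 and 15.02 CPM in WT and had 0 counts in the 3 KO libraries, a decrease of at least 808-fold when KO is set to 3 counts over its libraries. CG11697 (X, 11572707 to 11573640, plus strand), now named Reepl1, was at 16.2, 17.6 and 21.9 CPM in WT and at 0 in KO, at least 632-fold lower. CG32640 (X, 13178005 to 13178523, plus strand) was at 7.31, 8.14 and 7.44 CPM in WT and at 0 in KO, at least 261-fold lower. For these 3 genes each WT library held the transcript and each KO library held none, and the calls had adjusted p of 1.28e-04, 9.83e-05 and 1.98e-04.

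Cyp6a17 (2R, 14873953 to 14875739, plus strand), a cytochrome P450 known from the fly for its role in temperature preference, was at 103, 109.9 and 141 CPM in WT and 0.271, 0.135 and 0.518 CPM in KO (log2 fold change -8.61, SE 0.60, adjusted p = 9.83e-05). CG10462 was at 29.8, 31.2 and 31.2 CPM in WT and 0, 0.460 and 0.415 CPM in KO (log2 fold change -6.73, SE 0.70, adjusted p = 0.00126). CG9589, now named Uros2, was at 24.2, 25.5 and 12.5 CPM in WT and 0.162, 0.0541 and 0.0346 CPM in KO (log2 fold change -7.85, SE 0.79, adjusted p = 0.00117). In each case the KO libraries held at most traces of a transcript that every WT library held at more than 10 CPM. CG9589 overlaps a gene on the other strand and its count is uncertain, because strand was ignored in the counting.

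Lower down the range of expression, CG18577 was at 2.41, 2.91 and 5.16 CPM in WT and had 1 count in the KO group, a ratio of 352 with a 95% counting interval of 62.8 to 13923. This call, and those of the 6 genes above, held without any single library. CG43057 was at 0 in KO, lower by at least 49.7-fold, and CG43742 had 3 counts, a ratio of 66.9 with an interval of 22.6 to 327. antr, a seminal protein of males, was at 1.96, 1.78 and 2.12 CPM in WT and 0.0541, 0.0541 and 0 CPM in KO, and CG12934 was at 1.65, 1.29 and 8.28 and 0.0812, 0 and 0.0691 CPM. These last 4 genes stayed under 10 CPM in every library, and CG43057 overlaps a gene on the other strand. CG43057 lost its call on removal of any 3 d library or any 25 d WT library (adjusted p of 0.0513 to 0.0978), CG43742 on that of any 3 d library or any 25 d WT library (adjusted p of 0.0564 to 0.166), and antr on that of WT replicate 1 or 2, any KO library or any 25 d WT library (adjusted p of 0.0562 to 0.115). CG12934 lost its call on removal of any 3 d library or any 25 d WT library (adjusted p of 0.0508 to 0.118).

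Other large decreases left a measurable level in KO. phr (2R, 7825289 to 7827319, plus strand), a photolyase that repairs ultraviolet damage to DNA, was at 23.2, 21.6 and 24.0 CPM in WT and 1.68, 2.43 and 2.73 CPM in KO (log2 fold change -3.33, SE 0.25, adjusted p = 1.48e-04). CG32512 was at 68.8, 64.9 and 109 CPM in WT and 7.44, 4.44 and 5.84 CPM in KO (log2 fold change -3.77, SE 0.39, adjusted p = 0.00123). CG34180 was at 32.6, 30.7 and 57.9 CPM in WT and 3.57, 2.19 and 6.19 CPM in KO (log2 fold change -3.35, SE 0.40, adjusted p = 0.00291). The WT libraries were tight for phr and wider for CG32512 and CG34180, where WT replicate 3 was highest, and phr and CG34180 overlap genes on the other strand.

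Large increases were found, beside w, for genes that WT libraries held at low levels. CG32581, now named sordd2, was at 0.677, 0.0516 and 0.0272 CPM in WT and 35.6, 14.1 and 18.3 CPM in KO (log2 fold change 6.42, SE 0.86, adjusted p = 0.00455). Mal-B1 (2L, 11847226 to 11849169, plus strand), a maltase that splits disaccharides into glucose, was at 10.3, 4.10 and 14.96 CPM in WT and 260.5, 168 and 315 CPM in KO (log2 fold change 4.66, SE 0.58, adjusted p = 0.00326). Each KO library was above 10 times the highest WT library for both genes. CG40472 was at 1.016, 0.438 and 1.005 CPM in WT and 16.2, 24.7 and 14.3 CPM in KO (log2 fold change 4.48, SE 0.55, adjusted p = 0.00314). CG13822 (3R, 23677358 to 23678421, plus strand), now named GILT3, of the GILT family of thiol reductases, was at 1.04, 1.06 and 1.39 CPM in WT and 15.9, 15.6 and 14.6 CPM in KO (log2 fold change 3.73, SE 0.37, adjusted p = 0.00111). These 4 calls held without any single library.

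Unc-115b, an actin-binding protein related to Caenorhabditis elegans UNC-115, had 0 counts in WT and was at 3.30, 2.73 and 2.87 CPM in KO, at least 119-fold higher. CG9287 was at 0.135, 0 and 0 CPM in WT and 9.52, 6.90 and 15.2 CPM in KO (adjusted p = 0.0133). CG30091 was at 0.181, 0.155 and 0.570 CPM in WT and 3.73, 4.41 and 9.99 CPM in KO, and CG31157 at 0.542, 0.258 and 0.869 and 10.3, 8.87 and 9.85 CPM. These transcripts were at or below 1 CPM in WT and present in all KO libraries. Unc-115b and CG9287 overlap genes on the other strand. Unc-115b lost its call on removal of KO replicate 1 or 2 (adjusted p of 0.0520 to 0.0609), CG9287 on that of KO replicate 1 (adjusted p = 0.0600), and CG30091 on that of WT replicate 1 or 2 (adjusted p of 0.0761 to 0.0861). CG31157 lost its call on removal of WT replicate 1 or 2 or KO replicate 1 (adjusted p of 0.0565 to 0.0861).

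Among further increases, CG14024 was at 13.4, 9.46 and 5.38 CPM in WT and 88.2, 79.5 and 49.6 CPM in KO (log2 fold change 2.94, SE 0.34, adjusted p = 0.00237). CG31636 was at 4.04, 1.86 and 2.66 CPM in WT and 27.3, 24.2 and 23.6 CPM in KO (log2 fold change 3.13, SE 0.46, adjusted p = 0.00809), but without replicate 3 of both groups it was not called (adjusted p = 0.0701). CG31955 was at 3.86, 2.24 and 6.33 CPM in WT and 27.3, 28.1 and 24.9 CPM in KO (log2 fold change 2.69, SE 0.37, adjusted p = 0.00512). The groups were well separated for these 3 genes, whose functions the files do not give. CG8665 was at 2.39, 2.01 and 10.8 and 44.7, 32.9 and 101 CPM, CG3544 at 1.15, 1.01 and 1.22 and 10.8, 9.14 and 6.33 CPM, and CG8083, now named CNT2, a nucleoside transporter of the concentrative type, at 0.722, 1.19 and 0.869 and 7.71, 4.57 and 9.13 CPM in WT and KO. CG3544 overlaps a gene on the other strand, and these last 3 calls depended on single libraries. CG8665 lost its call on removal of WT replicate 1 or 2, KO replicate 1 or 3, any 25 d WT library or either 25 d KO library (adjusted p of 0.0540 to 0.133), CG3544 on that of any WT library or KO replicate 1 or 2 (adjusted p of 0.0626 to 0.141), and CG8083 on that of any WT library or KO replicate 1 or 3 (adjusted p of 0.0676 to 0.133).

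**Figure D2:**
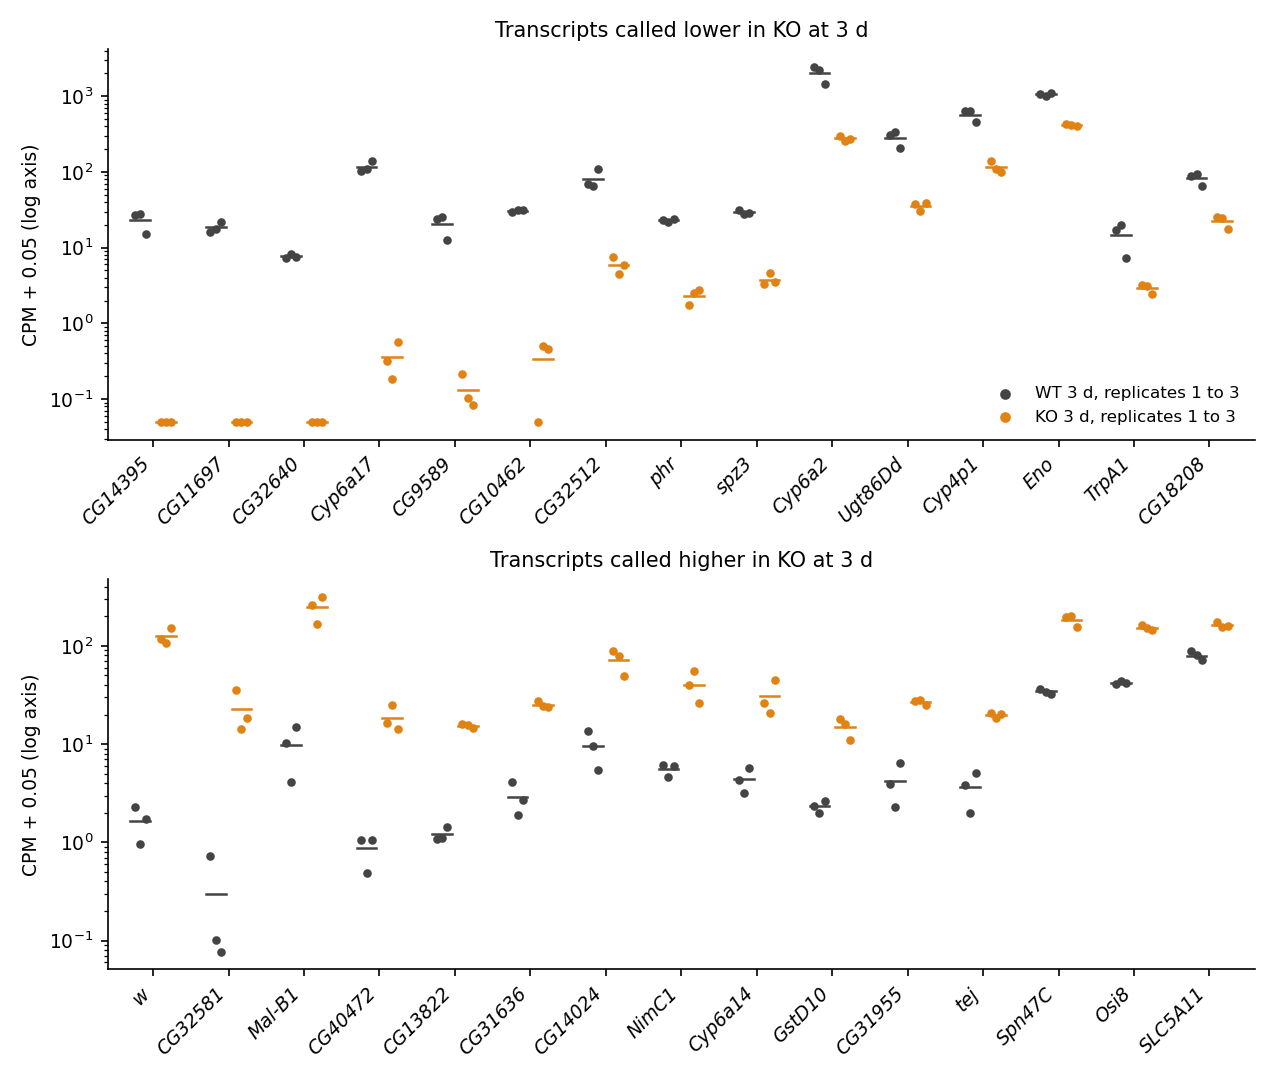
Dots are the TMM-normalized CPM of each library of 3 d plus 0.05, on a log axis, WT in grey and KO in orange, and bars are group means (n = 3). The upper panel shows 15 genes called lower in KO and the lower panel 15 called higher, and in each the grey and orange dots do not overlap.

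Enzymes that metabolize foreign compounds changed in both directions. Cytochrome P450s oxidize such compounds, UDP-glycosyltransferases and glutathione S-transferases conjugate them, and in the antenna members of these families are thought to help clear odorants. Of 78 P450 genes tested, 3 were higher and 8 lower (14.1%), of 27 UDP-glycosyltransferases 1 was higher and 3 lower (14.8%), and of 35 glutathione S-transferases 2 were higher and 1 lower (8.57%), beside 1.39% of all genes. Leaving out 1 library gave 5 to 16 called cytochrome P450s, 2 to 8 UDP-glycosyltransferases and 2 to 8 glutathione S-transferases, the highest without a 25 d KO library. The median log2 fold changes of these lists were 0.00, -0.22 and 0.30.

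Cyp6a2 (2R, 6779749 to 6781491, minus strand), a P450 known for insecticide resistance, had the second highest mean level of all called genes, after roX1, at 2437, 2218 and 1434 CPM in WT and 301, 258 and 274 CPM in KO (log2 fold change -2.87, SE 0.23, adjusted p = 1.98e-04). Cyp4p1 was at 632, 629.7 and 454 CPM in WT and 138, 109 and 101 CPM in KO (log2 fold change -2.30, SE 0.21, adjusted p = 5.43e-04). Cyp4d8 was at 35.6, 55.0 and 28.2 CPM in WT and 6.71, 5.87 and 7.95 CPM in KO (log2 fold change -2.53, SE 0.30, adjusted p = 0.00239). In all 3 the lowest WT library was above 3 times the highest KO library. Cyp6a14 went the other way, from 4.27, 3.12 and 5.73 CPM in WT to 26.5, 20.8 and 44.97 CPM in KO (log2 fold change 2.81, SE 0.41, adjusted p = 0.00717). These calls held without any single library.

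Cyp6a22, which lies next to Cyp6a17, was at 13.5, 13.2 and 28.1 CPM in WT and 1.54, 2.87 and 4.63 CPM in KO (log2 fold change -2.60), and Cyp4ac2 was at 178, 198 and 109.9 and 44.6, 36.8 and 75.9 CPM (-1.63). Cyp12d1-p and Cyp9h1 fell by 1.59 and 1.57 on the log2 scale, while Cyp6a16 rose by 3.53 from under 1 CPM and Cyp12a5 by 0.80. The Cyp6a genes and Cyp12d1-p have close copies in the genome, so that reads shared between copies may be split or lost. Cyp6a22 lost its call on removal of KO replicate 1 or 2 (adjusted p of 0.0620 to 0.100), Cyp4ac2 on that of WT replicate 1 or 2 or KO replicate 1 or 2 (adjusted p of 0.0913 to 0.113), and Cyp12d1-p on that of WT replicate 1 or 2, any KO library or any 25 d WT library (adjusted p of 0.0633 to 0.153). Cyp9h1 lost its call on removal of any 3 d library or any 25 d WT library (adjusted p of 0.0663 to 0.196), Cyp6a16 on that of any WT library, KO replicate 1 or 2 or any 25 d WT library (adjusted p of 0.0633 to 0.187), and Cyp12a5 on that of WT replicate 1 or any KO library (adjusted p of 0.0510 to 0.118).

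Among UDP-glycosyltransferases, Ugt86Dd (3R, 11126597 to 11128328, minus strand), now named Ugt35C1 and known in the fly for nicotine resistance, was at 305, 337 and 205 CPM in WT and 37.5, 30.2 and 38.6 CPM in KO (log2 fold change -2.995, SE 0.24, adjusted p = 1.98e-04). CG4302, now named Ugt49B1, was at 262, 267 and 199 CPM in WT and 50.1, 45.4 and 83.3 CPM in KO (log2 fold change -2.03, SE 0.25, adjusted p = 0.00313). Both were separated by a wide gap and held without any single library, though CG4302 overlaps a gene on the other strand. Ugt36Bb was at 6.05, 4.85 and 3.50 and 0.514, 0.108 and 0.830 CPM and CG17324 at 11.6, 10.4 and 12.6 and 24.9, 29.0 and 20.7 CPM in WT and KO, the first lower (log2 fold change -3.31) and the second higher (1.11). Ugt36Bb lost its call on removal of WT replicate 1 or 2, KO replicate 1 or any 25 d WT library (adjusted p of 0.0631 to 0.135), and CG17324 on that of WT replicate 1 or 2 or KO replicate 1 or 2 (adjusted p of 0.0891 to 0.108).

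The glutathione S-transferases GstD10 and GstD3 lie 7333 bases apart in the GstD cluster of 3R and moved in opposite directions. GstD10 (3R, 12364776 to 12365735, minus strand) was at 2.28, 1.96 and 2.61 CPM in WT and 17.8, 15.99 and 10.96 CPM in KO (log2 fold change 2.71, SE 0.35, adjusted p = 0.00347). GstD3 (3R, 12373068 to 12373813, plus strand) was at 30.5, 25.7 and 38.4 CPM in WT and 10.2, 10.2 and 8.23 CPM in KO (log2 fold change -1.72, SE 0.21, adjusted p = 0.00326). Neither pair of groups overlapped and neither call depended on a single library. The cluster consists of similar copies, so both counts are uncertain, and it lies within 1 Mb of mir-284. GstT4 was at 91.5, 81.3 and 116 CPM in WT and 223, 163 and 216 CPM in KO (log2 fold change 1.06). The membrane-bound Mgstl was at 203, 168 and 194 and 334, 332 and 476 CPM (1.017), with a gene on the other strand. Mgstl was outside the list of glutathione S-transferases counted above. GstT4 lost its call on removal of WT replicate 1 or 2, KO replicate 1 or 3 or 25 d WT replicate 1 or 2 (adjusted p of 0.0607 to 0.167), and Mgstl on that of any 3 d library or any 25 d WT library (adjusted p of 0.0933 to 0.226).

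Several called genes encode enzymes or transporters of metabolism, and were grouped here after their values were seen. Eno (2L, 1724768 to 1729636, minus strand), the glycolytic enzyme enolase, was at 1071, 1006 and 1109 CPM in WT and 424, 416 and 401 CPM in KO (log2 fold change -1.36, SE 0.15, adjusted p = 0.00166). whd, a carnitine palmitoyltransferase that admits fatty acids to mitochondria, was at 311, 306 and 238 CPM in WT and 121, 123 and 128 CPM in KO (log2 fold change -1.196, SE 0.15, adjusted p = 0.00347). SLC5A11, a solute carrier known in the fly for a role in the choice of nutritious sugar, was at 87.8, 79.9 and 71.5 CPM in WT and 176, 154 and 161 CPM in KO (log2 fold change 1.04, SE 0.14, adjusted p = 0.00397). The spread within each group was small beside these differences and the calls held without any single library, but all 3 genes overlap a gene on the other strand. sxe2, a member of the lipase family, was at 639, 606 and 564 CPM in WT and 115.03, 74.5 and 123 CPM in KO (log2 fold change -2.53, SE 0.28, adjusted p = 0.00191), also without dependence on a single library.

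Less firmly, UGP, which makes UDP-glucose, was at 133, 136 and 172 CPM in WT and 68.5, 60.1 and 92.4 CPM in KO. Drip, an aquaporin, was at 569, 563 and 298 CPM in WT and 211, 175 and 209.9 CPM in KO. CG10924, now named Pepck2, a phosphoenolpyruvate carboxykinase, was at 5.53, 3.74 and 29.7 CPM in WT and 1.06, 1.24 and 0.588 CPM in KO. CG1942, now named Dgat2, which makes triglycerides, was at 22.996, 27.7 and 21.7 CPM in WT and 10.3, 8.12 and 8.503 CPM in KO. All 4 were lower in KO, by 0.99, 1.26, 3.74 and 1.43 on the log2 scale, and WT replicate 3 held by far the highest Pepck2 level. UGP overlaps a gene on the other strand. UGP lost its call on removal of any WT library, KO replicate 1 or 2 or 25 d WT replicate 2 (adjusted p of 0.0537 to 0.113), Drip on that of WT replicate 1 or 2, any KO library or any 25 d WT library (adjusted p of 0.0518 to 0.129), and CG10924 on that of WT replicate 1 or 3, any KO library, any 25 d WT library or either 25 d KO library (adjusted p of 0.0563 to 0.203). CG1942 lost its call on removal of WT replicate 2 or KO replicate 2 (adjusted p of 0.0601 to 0.0641). Of 81 oxidative phosphorylation genes, edgeR, DESeq2 and limma voom called 0, 5 had an unadjusted p under 0.05, and the median log2 fold change was -0.14.

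Odorant receptors and odorant binding proteins, with which olfactory sensilla detect and carry odours, held no edgeR call. Of 45 odorant receptors tested, 34 had log2 fold changes above 0, with a median of 0.30, 6 had an unadjusted p under 0.05, DESeq2 called 1 and limma voom 0. Of 39 odorant binding proteins, with a median of 0.47, 8 had an unadjusted p under 0.05, DESeq2 called 5 and limma voom 0. Without either 25 d KO library edgeR called 1 of the odorant receptors and 4 of the odorant binding proteins. Without replicate 3 of both groups these medians were 0.15 and 0.30, and that of the odorant receptors was -0.04 without WT replicate 3 alone. WT replicate 3 had the lowest summed odorant receptor level, at 4111, 4069 and 1188 CPM in the WT libraries, against 4222, 4140.3 and 2601 CPM in the KO libraries. Among 17 antennal ionotropic receptors, Ir41a, an amine-sensing receptor of the coeloconic sensilla, was called, at 5.01, 4.51 and 2.01 CPM in WT and 13.7, 10.98 and 14.2 CPM in KO (log2 fold change 1.75, SE 0.36, adjusted p = 0.0421). Ir41a was the 1 call of its list (5.88%, beside 1.39% of all genes tested), and DESeq2 and limma voom also called 1. EdgeR called 0 in this list in the 6 libraries of 3 d alone and without replicate 3 of both groups. It also called 0 with the replicate block over 11 libraries, against 1.5-fold and with roX2 as a covariate. Ir41a lost its call on removal of any 3 d library or any 25 d WT library (adjusted p of 0.0501 to 0.172). Of 27 gustatory receptors and 30 genes of the cilium and intraflagellar transport, edgeR, DESeq2 and limma voom called 0 in either list, and 2 and 3 had an unadjusted p under 0.05.

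The genes TrpA1 and CheB42b, outside the receptor lists, were lower in KO. TrpA1 (3L, 8894404 to 8904790, minus strand), a cation channel opened by heat and irritants, was at 16.9, 20.0 and 7.17 CPM in WT and 3.14, 3.03 and 2.42 CPM in KO (log2 fold change -2.36, SE 0.35, adjusted p = 0.00809), and limma voom did not call it (adjusted p = 0.0649). CheB42b, of a family of secreted proteins of chemosensory sensilla, was at 23.8, 27.1 and 19.1 CPM in WT and 2.16, 1.43 and 4.63 CPM in KO (log2 fold change -3.10, SE 0.44, adjusted p = 0.00597). Both were called without any single library, and each KO library was below each WT library, of which replicate 3 was the lowest.

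A cell-surface protein of neurons and 2 receptors were also called. CG32791, now named DIP-alpha, a cell-surface immunoglobulin protein that matches neurons through Dpr partners, was at 24.9, 34.0 and 14.9 CPM in WT and 2.92, 2.54 and 2.28 CPM in KO (log2 fold change -3.25, SE 0.34, adjusted p = 0.00123), and it overlaps a gene on the other strand. CG18208, now named Octalpha2R, an octopamine receptor, was at 88.4, 94.2 and 66.1 CPM in WT and 25.3, 24.8 and 17.7 CPM in KO (log2 fold change -1.88, SE 0.23, adjusted p = 0.00326). WT and KO were separated for both, with no call lost to a single library. PK2-R1, a receptor for pyrokinin peptides, rose from 0.316, 0.335 and 0.570 CPM in WT to 5.76, 3.38 and 9.19 CPM in KO (log2 fold change 3.90, adjusted p = 0.0348). Together with CG18208 it was 1 of 2 called among 40 neuropeptide and amine receptors on the list (5.0%, beside 1.39% of all genes tested). That list did not hold CCKLR-17D3, a called receptor described below. PK2-R1 lost its call on removal of any 3 d library or 25 d WT replicate 1 (adjusted p of 0.0651 to 0.176).

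CCKLR-17D3, a receptor for the satiety peptide drosulfakinin, was at 13.8, 14.4 and 18.3 CPM in WT and 5.57, 7.49 and 5.98 CPM in KO (log2 fold change -1.29, adjusted p = 0.00967). Sh, the Shaker potassium channel, was at 374, 399 and 312 CPM in WT and 197, 181 and 128 CPM in KO (-1.10, adjusted p = 0.0421). Sh was the 1 call among 22 voltage-gated channels (4.55%, beside 1.39% of all genes tested). Of the 22, 21 had a log2 fold change below 0, beside 6050 of all 11867 genes tested. The median of the 22 was -0.24, or -0.17 without KO replicate 3. Their summed level was 6794, 7212 and 5887 CPM in WT and 6575, 6386 and 3871 CPM in KO. These sums overlapped between the groups and were lowest in KO replicate 3. KO replicate 3 held the lowest Sh level. CCKLR-17D3 lost its call on removal of KO replicate 1 (adjusted p = 0.0617), and Sh on that of any 3 d library or any 25 d WT library (adjusted p of 0.0507 to 0.176). Of 23 genes of synaptic vesicles and release and 7 neuronal markers, edgeR called 0, with medians of -0.05 and -0.19. In the first list 1 gene had an unadjusted p under 0.05 and DESeq2 called 1, in the second both counts were 0, and limma voom called 0 in both. Without KO replicate 3 the medians of the synaptic vesicle and release list and of the markers of neurons were 0.01 and 0.02.

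4 ligands and 1 serpin, brought together after their values were seen, were called. spz3 (2L, 7873495 to 7879552, minus strand), a ligand of the Spätzle family, which signals through Toll receptors, was at 31.4, 27.97 and 28.4 CPM in WT and 3.22, 4.52 and 3.49 CPM in KO (log2 fold change -2.97, SE 0.18, adjusted p = 9.83e-05). Spn47C (2R, 10938425 to 10941738, minus strand), a serpin, the class of protease inhibitors that also restrain Toll signalling, was at 36.6, 34.0 and 32.6 CPM in WT and 194, 201 and 155 CPM in KO (log2 fold change 2.42, SE 0.16, adjusted p = 9.83e-05). These genes shared, with CG11697 and Cyp6a17, the lowest adjusted p of the comparison, and within each group the libraries were close together. egr, the fly's tumour necrosis factor, was at 28.03, 28.5 and 28.2 CPM in WT and 5.19, 6.57 and 6.46 CPM in KO (log2 fold change -2.22, adjusted p = 0.0126). Pvf1 and Pvf3, ligands related to PDGF and VEGF, went in opposite directions, by 0.70 and -0.85 on the log2 scale. egr lost its call on removal of WT replicate 1 or 2 or KO replicate 1 or 2 (adjusted p of 0.0507 to 0.0848), Pvf1 on that of any 3 d library or 25 d WT replicate 1 or 2 (adjusted p of 0.0677 to 0.215), and Pvf3 on that of any WT library or KO replicate 1 or 3 (adjusted p of 0.0645 to 0.124).

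Of 40 genes of immune recognition and response and 16 antimicrobial peptides, edgeR and limma voom called 0 in either list, DESeq2 called 3 and 0, and 4 and 3 had an unadjusted p under 0.05. The antimicrobial peptide genes varied between libraries of 1 group: Drs was at 2.37, 7.01 and 552 CPM in WT and 9.58, 86.2 and 21.0 CPM in KO. Their median log2 fold change was 0.48, 2.33 without replicate 3 of both groups, 2.95 without WT replicate 3 and -0.38 without KO replicate 3, so that no direction is drawn from it. NimC1, a receptor with which hemocytes, the blood cells of the fly, take up bacteria, was at 6.05, 4.61 and 5.92 CPM in WT and 39.8, 54.9 and 26.2 CPM in KO (log2 fold change 2.87, SE 0.38, adjusted p = 0.00398). It was the 1 call among 10 hemocyte markers (10%, beside 1.39% of all genes tested). Hml, another hemocyte marker, was at 99.6, 134 and 180.3 and 103, 108 and 70.4 CPM. The summed level of the 10 markers was 319.8, 383 and 459 CPM in WT and 426, 512 and 334 CPM in KO, overlapping between the groups.

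The flight muscle genes Act88F and TpnC4 were lower in KO. Of 24 markers of muscle tested, edgeR called 2, both lower (8.33%, beside 1.39% of all genes tested). DESeq2 called 7 and limma voom 3, and 11 had an unadjusted p under 0.05. Of all 11867 genes tested, DESeq2 called 564 and limma voom 176, and 1304 had an unadjusted p under 0.05. The edgeR count was 0 without KO replicate 1 or 2 and 6 without KO replicate 3. The log2 fold change was below 0 for 22, with a median of -0.90, or -0.56 without WT replicate 3 and -1.47 without KO replicate 3. Act88F, the actin of indirect flight muscle, was at 92.9, 34.8 and 44.7 CPM in WT and 4.36, 6.76 and 10.5 CPM in KO (log2 fold change -2.998, SE 0.45, adjusted p = 0.00963). TpnC4, a troponin C of flight muscle, was at 33.7, 16.8 and 39.0 CPM in WT and 3.49, 3.81 and 8.02 CPM in KO (log2 fold change -2.55, SE 0.51, adjusted p = 0.0379). Mhc, the muscle myosin heavy chain, was at 346, 326 and 676 CPM in WT and 179.7, 156 and 467 CPM in KO, with overlap between the groups and no call. The summed muscle level was 2518, 2183 and 4641 CPM in WT and 1205, 1164 and 2738 CPM in KO, highest in replicate 3 of each. Act88F lost its call on removal of KO replicate 1 or 2 (adjusted p of 0.0526 to 0.0638), and TpnC4 on that of WT replicate 1 or 3, KO replicate 1 or 2 or 25 d WT replicate 1 or 2 (adjusted p of 0.0513 to 0.182).

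Transcripts linked to sex and to the fat body differed between libraries beside all the calls above. The yolk protein genes, expressed by the fat body of females, were high in WT replicate 3 and in all KO libraries: Yp1 was at 22.2, 4.87 and 1489.7 CPM in WT and 410.3, 1798 and 1888 CPM in KO. Yp2 was at 16.4, 6.21 and 1347 and 561, 2436 and 1821 CPM and Yp3 at 27.7, 4.61 and 2234 and 1089, 3914 and 4795 CPM. None of the 11 fat body and female markers was called by edgeR or limma voom, DESeq2 called 1, 1 had an unadjusted p under 0.05, 9 of 11 had log2 fold changes above 0, and the summed levels were 541, 579.9 and 7225 CPM in WT and 2343, 8719 and 9905 CPM in KO.

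roX1, a long non-coding RNA that coats the single X chromosome of males in dosage compensation, was at 2826, 3788 and 2439 CPM in WT and 1229.7, 745 and 964 CPM in KO (log2 fold change -1.62, SE 0.34, adjusted p = 0.0476). roX2, its partner, was at 27.8, 28.9 and 29.2 CPM in WT and 13.8, 9.55 and 10.6 CPM in KO (log2 fold change -1.34, SE 0.31, adjusted p = 0.0734, not called). Both were lower in every KO library than in every WT library, WT replicate 3 included, and roX1 overlaps a gene on the other strand. roX1 lost its call on removal of any 3 d library or any 25 d WT library (adjusted p of 0.0524 to 0.208). With the log2 level of roX2 as a covariate, 8 genes were called, all of them among the 165: CG14395, CG11697, CG32640, Cyp6a17, phr, spz3, CG14715 and Spn47C. Because roX2 itself separated the genotypes at 3 d, this covariate takes up part of the genotype difference. The fit cannot tell the roX2 level and the genotype apart, and no conclusion is drawn from the 8 calls. Photoreceptor markers, which belong to the eye, ranged from 2000 to 9254 CPM in sum without a call by edgeR, DESeq2 or limma voom or an unadjusted p under 0.05 among 14 tested. The part of muscle, fat body, eye and sex differences in the calls was not tested.

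**Figure D3:**
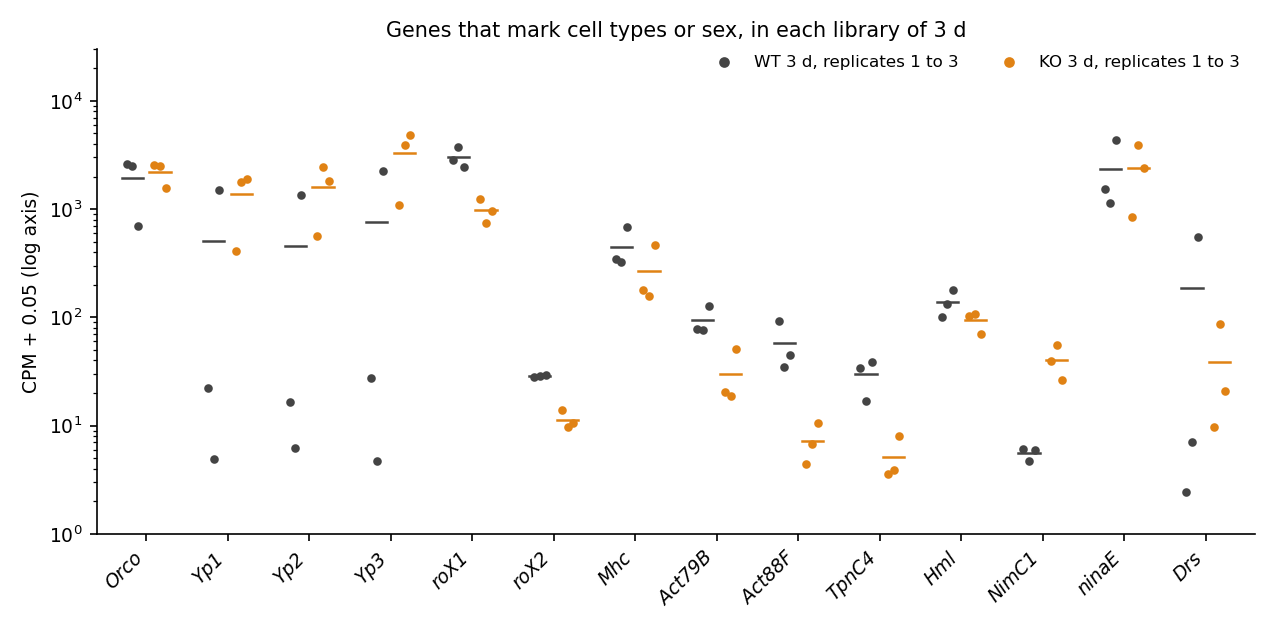
Dots are the TMM-normalized CPM of each library of 3 d plus 0.05, on a log axis, WT in grey and KO in orange in the order of replicates 1, 2 and 3, and bars are group means (n = 3). WT replicate 3 is with the KO libraries for Yp1, Yp2 and Yp3 but with the WT libraries for roX1 and roX2.

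Of the circadian clock, vri and tim were called, both upward at 3 d. tim, a repressor of the circadian clock that is degraded in light, was at 194, 209.9 and 206 CPM in WT and 429, 374 and 390.2 CPM in KO (log2 fold change 0.97, SE 0.19, adjusted p = 0.0326). vri, a repressor of the clock gene Clk, was at 125, 133 and 106 CPM in WT and 345, 343 and 306 CPM in KO (log2 fold change 1.45, SE 0.21, adjusted p = 0.00836). Each group was narrow and the groups lay apart. per, the partner of tim, was at 42.5, 44.9 and 30.4 CPM in WT and 79.3, 88.1 and 59.0 CPM in KO without a call (adjusted p = 0.0741), and Clk was at 52.2, 51.4 and 63.8 and 30.9, 42.9 and 36.4 CPM (adjusted p = 0.381). The 2 calls were 14.3% of 14 clock genes, whose median was 0.02, beside 1.39% called of all genes tested. Clock transcripts cycle over the day, and the time of dissection is not given, so genotype and time of sampling cannot be told apart for them. tim lost its call on removal of any 3 d library or 25 d WT replicate 2 (adjusted p of 0.0699 to 0.176), and vri on that of WT replicate 1 or KO replicate 1 (adjusted p of 0.0501 to 0.0512).

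Of 56 cuticle proteins 1 was higher and 1 lower (3.57%, beside 1.39% of all genes tested), and DESeq2 called 2 higher and 6 lower. The edgeR calls of this list were Cpr51A and Cpr73D, and the list did not hold Cda5, Osi8 and knk. Their log2 fold changes were below 0 for 40, with a median of -0.60, and 13 had an unadjusted p under 0.05. Cpr73D was at 81.9, 83.5 and 81.4 CPM in WT and 32.95, 22.9 and 36.1 CPM in KO (log2 fold change -1.43, SE 0.19, adjusted p = 0.00455). Cda5, a chitin deacetylase, was at 94.4, 100.1 and 114.9 CPM in WT and 34.6, 26.0 and 33.9 CPM in KO (log2 fold change -1.71, SE 0.23, adjusted p = 0.00401). These were lower in every KO library. Osi8, of the Osiris family of secretory proteins, was at 41.1, 43.8 and 41.7 CPM in WT and 162, 152 and 146 CPM in KO (log2 fold change 1.86, SE 0.26, adjusted p = 0.00530). knk, which protects and organizes cuticle chitin, was at 5.66, 4.95 and 4.67 CPM in WT and 12.7, 12.9 and 14.3 CPM in KO (log2 fold change 1.38, SE 0.19, adjusted p = 0.00455). Both of these were higher in every KO library, and none of the 4 calls depended on a single library. Cpr51A rose by 1.23, a call that RLE scaling, upper-quartile scaling and limma voom did not give (adjusted p of 0.0553 to 0.0877), and b, an aspartate decarboxylase of the tanning pathway, fell by 1.87 on the log2 scale. Cpr51A lost its call on removal of any 3 d library or any 25 d WT library (adjusted p of 0.0779 to 0.187), and b on that of WT replicate 1 or 3 or KO replicate 1 or 2 (adjusted p of 0.0502 to 0.0972).

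The next genes, known from the germ line or from axonemal cilia, were brought together after their values were seen. tej, a Tudor-domain protein of the piRNA pathway, was at 3.75, 1.96 and 5.05 CPM in WT and 20.6, 18.5 and 20.1 CPM in KO (log2 fold change 2.46, SE 0.32, adjusted p = 0.00390). qin, another piRNA factor, was at 14.4, 13.4 and 14.99 CPM in WT and 6.36, 5.57 and 4.74 CPM in KO (log2 fold change -1.36), and blanks, an RNA-binding protein of spermatogenesis, at 4.27, 1.98 and 2.23 and 8.66, 10.01 and 9.30 CPM (1.72). blanks was the 1 call among 18 genes of the small RNA pathways (5.56%, beside 1.39% of all genes tested), a list that did not hold tej and qin. CG17669, now named Dnaaf3, a factor of dynein assembly, was at 7.36, 4.67 and 9.23 CPM in WT and 22.9, 22.996 and 32.9 CPM in KO (1.89), and CG8800, now named ODA-Dnal1, a dynein light chain, at 6.48, 7.58 and 11.2 and 40.1, 37.6 and 44.4 CPM (2.27). The direction was up in KO for all of these but qin, and an opposite-strand gene overlaps qin. qin lost its call on removal of WT replicate 1 or 2 or any KO library (adjusted p of 0.0593 to 0.0874), blanks on that of WT replicate 2 or 3, any KO library or any 25 d WT library (adjusted p of 0.0631 to 0.167), and CG17669 on that of WT replicate 1 or 2 (adjusted p of 0.0630 to 0.0799). CG8800 lost its call on removal of WT replicate 1 or 2 (adjusted p of 0.0761 to 0.0784).

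Further calls that held without any single library were chosen for mention after their values were seen. MED6, a subunit of the Mediator complex, was at 54.1, 53.5 and 44.8 CPM in WT and 13.3, 16.96 and 13.4 CPM in KO, with a gene on the other strand. CG1124, now named Jhbp1, was at 29.3, 26.8 and 24.99 CPM in WT and 50.2, 52.3 and 63.4 CPM in KO. mst, or misato, named for its role in cell division, was at 9.997, 9.30 and 8.36 CPM in WT and 19.9, 20.7 and 18.2 CPM in KO. The log2 fold changes of these genes were -1.80, 1.03 and 1.09, at adjusted p of 0.00214, 0.00512 and 0.00523. CG31207, CG3635, CG12483, CG42402, CG3104, CG13101 and CG9452 were lower, with log2 fold changes of -2.77, -2.23, -2.12, -2.09, -1.85, -1.63 and -0.99, and CG4089, now named TTLL15, was higher at 0.93. CG10553, 1 of the 10 called genes with the highest mean level, was at 1132, 1179.9 and 709 CPM in WT and 448, 333 and 385 CPM in KO (log2 fold change -1.37). CG10553 lost its call on removal of WT replicate 1 or 2 or any KO library (adjusted p of 0.0534 to 0.0930).

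Among the remaining calls, also chosen after their values were seen, were signalling and transport genes. Ret, a receptor tyrosine kinase, was at 31.6, 35.6 and 23.003 CPM in WT and 13.3, 13.7 and 13.9 CPM in KO (log2 fold change -1.14), and overlaps a gene on the other strand. Sln, a monocarboxylate transporter, was at 51.3, 48.6 and 34.9 CPM in WT and 99.1, 79.8 and 112 CPM in KO (1.11). CG13397, now named Naglu after a lysosomal enzyme that degrades heparan sulfate, was at 5.51, 5.03 and 10.8 CPM in WT and 24.8, 26.4 and 35.2 CPM in KO (2.02). Ret was lower in all KO libraries, and the other 2 genes were higher in all of them. Nnf1a, a kinetochore protein like Kmn1, was at 2.96, 4.07 and 2.91 CPM in WT and 17.7, 12.5 and 16.3 CPM in KO (2.23), opposite in direction to Kmn1. Spn42Dc, a serpin, was at 14.1, 13.9 and 15.5 CPM in WT and 5.30, 6.49 and 6.64 CPM in KO (-1.24), opposite to Spn47C. Ret lost its call on removal of WT replicate 1 or 2 or any KO library (adjusted p of 0.0586 to 0.109), Sln on that of WT replicate 2 or KO replicate 1 (adjusted p of 0.0595 to 0.0730), and CG13397 on that of WT replicate 1 (adjusted p = 0.0532). Nnf1a lost its call on removal of WT replicate 1 or KO replicate 1 (adjusted p of 0.0600 to 0.0803), and Spn42Dc on that of KO replicate 1 (adjusted p = 0.0593).

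Non-coding RNAs made up 8 of the 165 calls. Of 656 with a CR symbol, 4 were higher and 3 lower (1.07%), near the share of all genes. CR43242 was at 17.8, 17.4 and 19.3 CPM in WT and 8.06, 8.03 and 8.05 CPM in KO (log2 fold change -1.18, SE 0.15, adjusted p = 0.00326), and CR44442 was at 1.38, 1.39 and 1.93 CPM in WT and 9.20, 7.87 and 7.40 CPM in KO (log2 fold change 2.38, SE 0.30, adjusted p = 0.00347). In CR43242 the libraries of each group were almost equal. CR44922, with the highest mean level of the 7, was at 86.4, 105 and 129 CPM in WT and 5.49, 3.22 and 7.54 CPM in KO (log2 fold change -4.30). The antisense RNAs CR45024 and CR45131, at -2.62 and 1.51, cannot be told apart from the genes they overlap, and CR44101 and CR43314 were higher by 2.21 and 1.04. CR44922 lost its call on removal of WT replicate 1 or 2, any KO library or any 25 d WT library (adjusted p of 0.0631 to 0.147), CR45024 on that of WT replicate 1 or 2 or KO replicate 1 (adjusted p of 0.0563 to 0.0731), and CR45131 on that of any 3 d library or 25 d WT replicate 1 or 3 (adjusted p of 0.0542 to 0.148). CR44101 lost its call on removal of any WT library, KO replicate 1 or 3 or any 25 d WT library (adjusted p of 0.0513 to 0.117), and CR43314 on that of WT replicate 1 or 2, any KO library or 25 d WT replicate 1 (adjusted p of 0.0699 to 0.189).

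**Figure D4:**
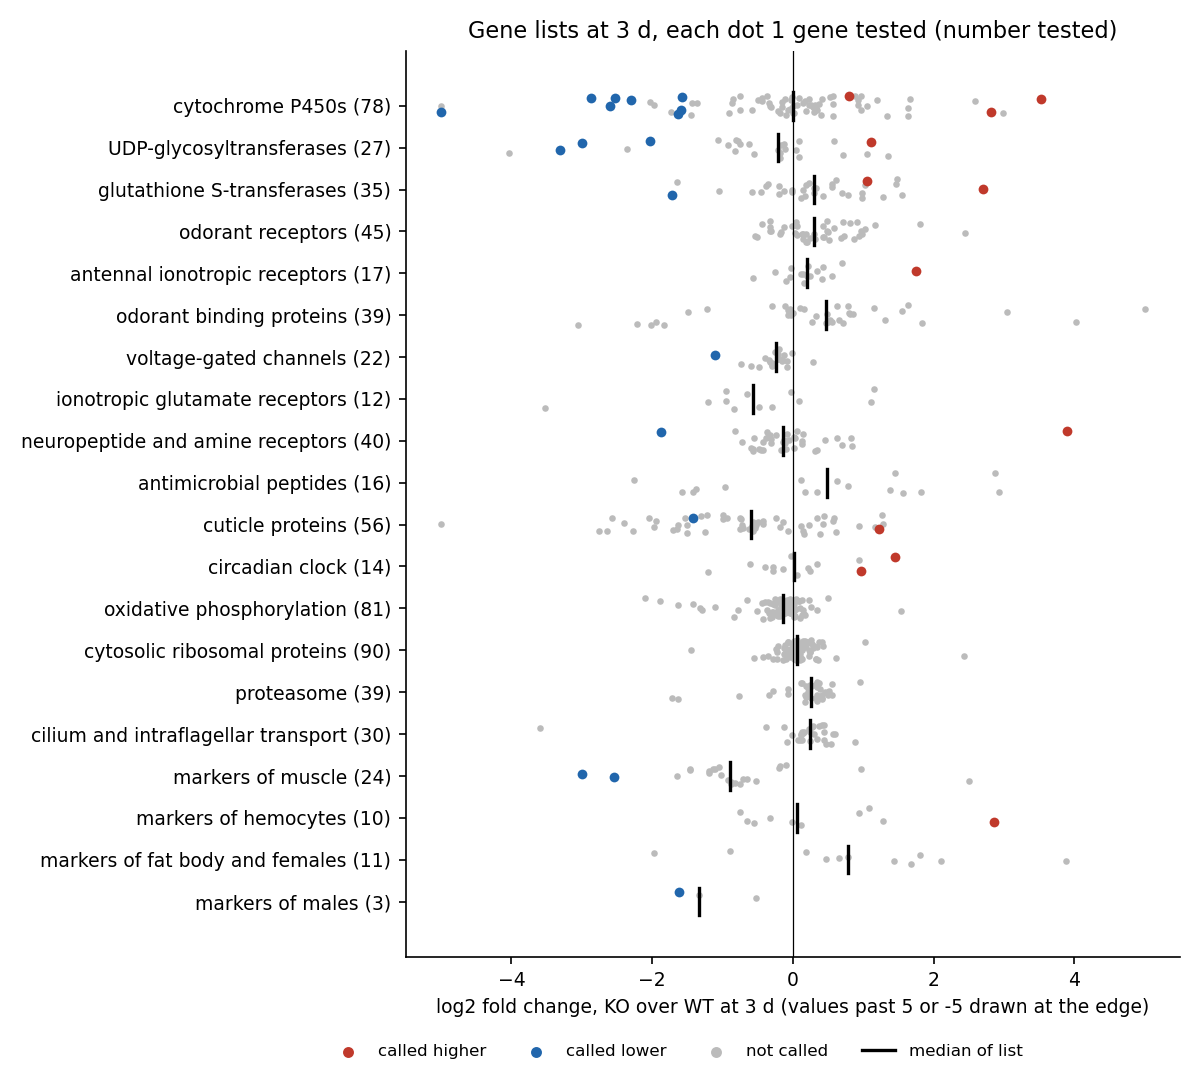
Each dot is the log2 fold change, KO over WT at 3 d, of 1 gene tested in the gene list named at the left, with the number tested in brackets, red where called higher, blue where called lower and grey where not called, and black bars are medians. Calls lie on both sides of 0 for the P450s, UDP-glycosyltransferases and glutathione S-transferases, and the muscle markers sit mostly left of 0.

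Called genes were spread over all large chromosome arms. Of the genes tested, 45 of 2152 were called on 2L (2.09%), 46 of 2470 on 2R (1.86%), 17 of 2289 on 3L (0.743%), 33 of 2896 on 3R (1.14%), 24 of 1963 on X (1.22%) and 0 of 95 on 4. On 3R, which holds mir-284, 6 of 230 genes within 1 Mb of it were called (2.61%): CG14395, GstD3, GstD10, CG31157, PK2-R1 and CG14715. From 1 to 2 Mb the count was 5 of 198 (2.53%), from 2 to 5 Mb 7 of 653 (1.07%), from 5 to 10 Mb 11 of 843 (1.3%), and from 10 to 25 Mb 4 of 972 (0.412%). CG14715 was at 18.9, 19.6 and 26.5 CPM in WT and 4.17, 4.38 and 5.91 CPM in KO (log2 fold change -2.17, SE 0.24, adjusted p = 0.00184), and it overlaps a gene on the other strand. These shares are descriptions of small counts and were not tested, and the part of DNA linked to the KO allele or of other differences between the stocks was not tested.

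Within 10000 bases of each other there were 10 pairs of called genes, 8 in the same direction, a count that was not tested. Both were higher for vri and CG14024, 88 bases apart, for CG31633 and CG31636, and for CG31955 and CG2818. Both were lower for Cyp6a22 and Cyp6a17, for Kmn1, a kinetochore protein, and CG11697, for Cyp9h1 and antr, for CG9451 and CG9452, and for CG10553 and CG10560. Directions differed for GstD10 and GstD3 and for Mgstl and Cbs. Kmn1 was at 20.9, 23.5 and 30.4 CPM in WT and 4.06, 4.60 and 2.77 CPM in KO, next to CG11697, which was at 0 in KO. Kmn1 lost its call on removal of any 3 d library or any 25 d WT library (adjusted p of 0.0633 to 0.154), CG31633 on that of WT replicate 1 or 2 (adjusted p of 0.0600 to 0.0704), and CG2818 on that of WT replicate 1 or KO replicate 1 (adjusted p of 0.0592 to 0.0617). Cbs lost its call on removal of WT replicate 1 or 2, any KO library or any 25 d WT library (adjusted p of 0.0514 to 0.127), CG9451 on that of any WT library or KO replicate 1 or 2 (adjusted p of 0.0503 to 0.106), and CG10560 on that of WT replicate 1 or 2, any KO library or 25 d WT replicate 1 or 2 (adjusted p of 0.0560 to 0.134).

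The 25 d libraries, which share no library with those of 3 d, gave the same contrast in older flies. Both contrasts compared the same genotypes and came from 1 fit with a shared estimate of the spread. The share of all genes tested with the same sign at both ages is not given here, so the share of same signs below has no baseline. Of the 165 genes called at 3 d, 157 (95.2%) had the same sign at 25 d, and 95 were called there in the same direction, which was 57.6% of the 3 d calls and 46.1% of the 206 genes called at 25 d (1.74% of those tested). Among the 56 genes called at 3 d without any single library, 45 were called at 25 d in the same direction. Part of these 25 d calls depended on 1 library. At 25 d w was not called without 25 d WT replicate 1 (adjusted p = 0.0600), nor Cyp6a2 without 25 d WT replicate 3 (0.0571). spz3 was not called at 25 d without 25 d WT replicate 2 or 3 (adjusted p of 0.0715 and 0.0662). How many of the 45 held without any single library is not given here. The median log2 fold change of the higher calls was 1.51 at 3 d and 1.21 at 25 d, and that of the lower calls -1.86 and -1.60. KO at 25 d rests on 2 libraries, of which replicate 1 stood apart from all others.

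Side by side, the log2 fold changes at 3 d and 25 d were -8.61 and -9.46 for Cyp6a17, -3.33 and -2.86 for phr, 4.66 and 3.9999 for Mal-B1, -1.36 and -1.14 for Eno, and 2.42 and 1.70 for Spn47C, each called at both ages. The 25 d call of Mal-B1 was lost without the 25 d KO replicate 1 (adjusted p = 0.0676) or the 25 d WT replicate 3 (adjusted p = 0.0598). CG10553 was at -1.37 at 3 d and 0.02 at 25 d, Sh at -1.10 and 0.15, GstD3 at -1.72 and -0.33, and CG1124 at 1.03 and 0.15, none of them called at 25 d. Without the 25 d WT replicate 3, 68 genes were called at 25 d in place of 206, and without the 25 d KO replicate 2 there were 5090. The test of the difference between the ages gave adjusted p of 0.725, 0.790, 0.673 and 0.725 for these 4 genes, so that a difference was not shown. It called 3 genes of all tested (0.0253%), and 726 had an unadjusted p under 0.05. Of these, tim and vri were called at both ages in opposite directions: at 25 d tim was at 764, 1036 and 1209 CPM in WT and 198 and 245 CPM in KO, and vri at 415, 644 and 770.4 CPM in WT and 185 and 175 CPM in KO. At that age every KO library was below every WT library for both genes. The call of this difference was lost for tim on removal of WT replicate 1 (adjusted p = 0.0540) and for vri on removal of WT replicate 1, KO replicate 1 or 2 or the 25 d WT replicate 2 (adjusted p of 0.0506 to 0.0578). With replicate 3 of both 3 d groups left out it was lost for both genes (adjusted p = 0.115 and 0.127).

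**Figure D5:**
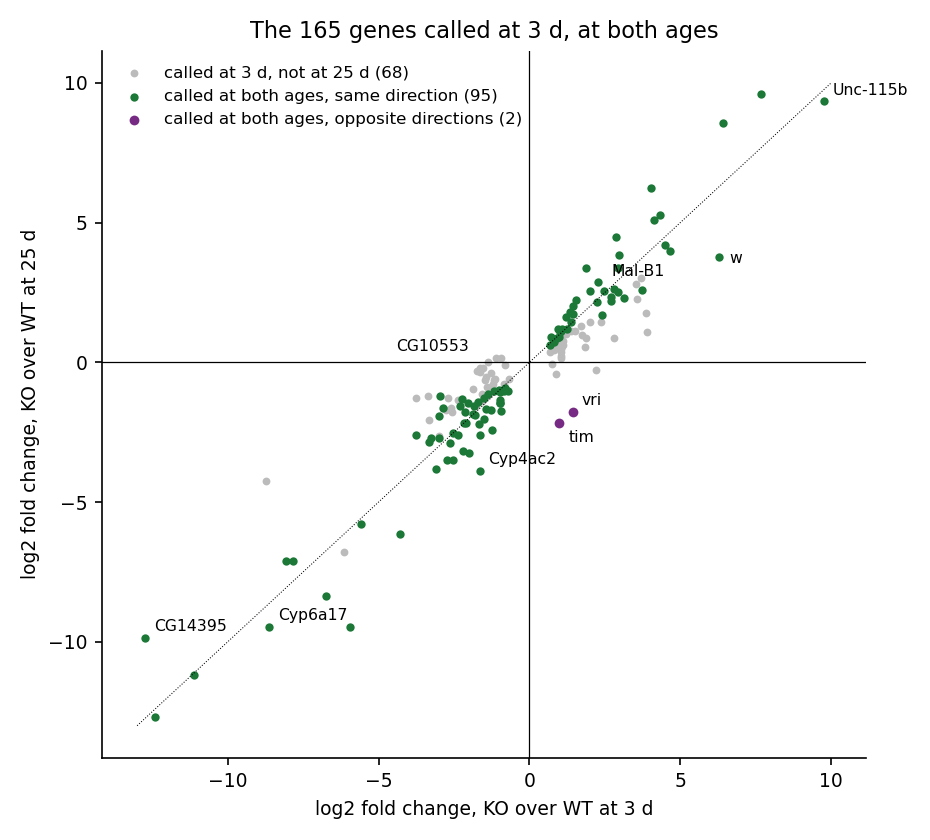
Each dot is 1 of the 165 genes called at 3 d, with its log2 fold change, KO over WT, at 3 d on the horizontal axis and at 25 d on the vertical axis, and the dotted line marks equal values. The 95 genes called at both ages in the same direction are green, the 68 not called at 25 d grey, and tim and vri, called in opposite directions, purple.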

How the data were processed

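Gene counts were deposited by the authors as raw read counts per gene, made with featureCounts 1.4.5-p1 on the dm6 build with strand setting 0, that is without regard to strand, per the file headers. The submitters' processing notes also name STAR 2.4.2a and FastQC. The libraries came from a directional kit, per the labels' protocols, so reads of overlapping genes on opposite strands were not told apart, and reads of near-identical copies may be split or lost. Columns were matched to samples by their names, and 1 count column without a matching sample was not used.

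From the counts, genes were filtered with filterByExpr and scaled by TMM, and KO was set against WT at each age in 1 model of 4 group means over 11 libraries with edgeR 4.0.16 (robust quasi-likelihood test, Benjamini-Hochberg adjustment, R 4.3.3). The test of the difference between the ages came from the same model. Alternatives used limma voom 3.58.1, DESeq2 1.42.0, other scalings, filters and sets of libraries, a replicate block, a test against 1.5-fold, and roX2 as a covariate. On simulated counts of 11590 genes, with 100 changed at each size, 39% of the genes changed 2-fold and 93% of those changed 4-fold were recovered, with 9 calls among unchanged genes. The changed genes were drawn only from those with a mean of 5 CPM or more, and no simulated library was made to stand apart. These shares therefore do not cover genes of lower level or the outlying libraries of the data.

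Gene names and coordinates are those deposited with the counts, on the dm6 build, and current names are from the RefSeq annotation. The members, the 40 gene lists and the tests were chosen with earlier results of these data known. Genes were named by a rule: the targeted and marker genes, the 15 largest increases and decreases without overlap between the groups and with a mean of 5 CPM or more on the higher side, the 10 calls with the lowest adjusted p, the 10 with the highest mean level, and up to 6 called members of each list. Other named genes were chosen after their values were seen. Counting intervals (95%, exact) and limits of 3 counts cover counting error only. Sites for miR-284 were not analysed here.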

Additional observations from a re-analysis of the deposited data

Results flagged for a closer look

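The KO effect on tim and vri differed between the ages by the test of the difference itself. The effect at 25 d minus that at 3 d was -3.15 on the log2 scale for tim (SE 0.29, adjusted p = 0.00648) and -3.21 for vri (SE 0.33, adjusted p = 0.00903, edgeR's quasi-likelihood test). Without replicate 3 of both 3 d groups the adjusted p was 0.115 for tim and 0.127 for vri. Both genes were higher in every KO library at 3 d and lower in every KO library at 25 d. The time of day of dissection is not given for any library, and its part was not tested.

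CG11893 also passed this test, with a difference of 2.96 (adjusted p = 0.0257, edgeR). It was at 10.8, 13.2 and 11.8 CPM in WT and 12.8, 11.1 and 7.98 CPM in KO at 3 d, and at 12.7, 12.9 and 15.95 and 123 and 68.9 CPM at 25 d. This call was lost on removal of any library other than the 25 d KO ones (adjusted p of 0.0607 to 0.176), with limma voom (adjusted p = 0.0626), with roX2 as a covariate (0.0543), in the test against 1.5-fold (0.0501) and without replicate 3 of both 3 d groups (0.181).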

How the results depend on the processing

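Against the 165 calls at 3 d, DESeq2 gave 564, a test against a 1.5-fold change 65, the roX2 covariate 8, and the 9 libraries without those of KO at 25 d 639, while RLE scaling, upper-quartile scaling, limma voom, no filter, a stricter filter, the 6 libraries of 3 d, the fit without replicate 3 of both groups and the fit without genes overlapped on the other strand gave 134 to 245. Leaving out 1 library gave 64 to 592. At 25 d the 206 calls became 1078 with DESeq2, 93 against 1.5-fold and 14 with roX2, and 68 to 5090 without 1 library. The 3 differences between the ages became 43 with DESeq2, 5 with the stricter filter and 0 without replicate 3 of both groups, and 0 to 2987 without 1 library. The causes were not tested. Of the 165 genes, none changed sign in any alternative, and 103 were called without replicate 3 of both groups. Among genes named but not called, the log2 fold change of Orco turned to -0.0125 without replicate 3 of both groups, -0.20 with roX2, and ranged from -0.21 to 0.46 without 1 library. With roX2 as a covariate, roX2 itself was at 0.00422, a value near 0 by construction because its own level was in the model. In the same fit Yp1 was at -5.09, Yp2 at -3.32 and Yp3 at -4.53 (edgeR, adjusted p of 0.776, 0.841 and 0.781). roX2 separated the genotypes at 3 d, so this fit cannot tell the roX2 level and the genotype apart. No reversal is read from these values.

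Whether the replicate numbers pair the libraries was not settled. The deviations of same-numbered libraries correlated at 0.408, 0.0254 and 0.465 for numbers 1, 2 and 3. KO replicate 3 correlated best with WT replicate 3, but KO replicate 1 correlated best with WT replicate 2 (0.504). With the replicate block over 11 libraries 117 genes were called at 3 d, against 165 without it. With the replicate block over the 6 libraries of 3 d 866 were called, against 245 in these libraries without it. For the difference between the ages, the replicate block over 11 libraries gave adjusted p of 0.0210 for tim, 0.0542 for vri and 0.105 for CG11893. The alternatives planned for miR-284 seed sites were not run. Genes near the limit of 3 counts cannot be ranked by their fold changes.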
